A study of Mus musculus with 6 samples.

Results

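Notch signalling and the secretory fate choice of the crypt were followed through 10 genes in single cells of mouse ileal crypts. The genes were the receptors Notch1 and Notch2, the ligands Dll1, Dll4, Jag1 and Jag2, the target Hes1, and the transcription factors Atoh1, Gfi1 and Spdef. They were chosen by symbol, and each symbol matched 1 of the 32285 genes in the count matrices. EpCAM-sorted epithelial cells were measured on the MobiNova-100 droplet platform, with 3 libraries from Fpr2f/f mice and 3 from Fpr2VKO mice. Fpr2f/f mice (labelled WT) carry an Fpr2 gene flanked by recombination sites and no Cre. In Fpr2VKO mice the same floxed gene was combined with Cre recombinase under the Villin promoter, which is active in intestinal epithelium, so that Fpr2 of other cells is not targeted. Both lines were on the C57BL/6J background. Each group had 3 mice and 3 libraries, but the labels tie no library to a mouse, so p-values measure the spread between these libraries.

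Notch is a contact-dependent pathway. A Delta-like or Jagged ligand on a cell binds a Notch receptor on its neighbour, proteases release the receptor's intracellular part, and this part joins RBPJ in the nucleus and switches on targets such as Hes1. HES1 represses Atoh1, so crypt cells with active Notch become absorptive, while cells that escape it keep Atoh1, the basic helix-loop-helix factor required for goblet, Paneth and enteroendocrine cells. ATOH1-positive cells in turn express Delta-like ligands, GFI1 steers secretory progenitors away from the enteroendocrine fate, and SPDEF drives goblet and Paneth maturation.

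The targeted gene could not check the genotypes, because Fpr2 had 0 UMIs over all barcodes of each library. A UMI (unique molecular identifier) marks a captured molecule, and the libraries held 90142126 to 189516114 of them. Barcodes with at least 1000 UMIs, at least 500 genes and at most 20% mitochondrial UMIs were kept (1868 to 4722 per library), and 16676 cells were left after doublet removal. Before the mitochondrial limit, the median mitochondrial share of a library's barcodes was 26.3% to 39.3%. Pairs of libraries shared 0 to 23 kept barcodes, where 1.79 to 5.68 would be shared if barcodes were drawn independently. Pairs among replicates 1 and 2 of both groups shared 8 to 23, and the replicates 3 of the groups shared 9. Pairs of a replicate 3 with a replicate 1 or 2 shared 0 to 4. Whether this marks a batch was not tested. Over all barcodes of the 6 libraries, the genes had 1127 (Gfi1) to 145649 (Hes1) UMIs. Levels below are CPM, UMIs of the gene per 1000000 UMIs of the summed cells of a library, and are compared between cells and libraries, not between genes.

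Clusters were named from marker lists, with the 10 genes and 71 further genes of the pathway and of secretory fate kept out of the clustering. This gave 4457 TA-like (transit-amplifying) cells, 3728 enterocyte-like, 2192 stem-like, 1332 goblet-like, 1056 Paneth-like, 567 enteroendocrine-like, 305 tuft-like and 279 immune-like cells. Of the 2760 cells left unnamed, 439 formed cluster 17, whose leading genes were Rnase1, Ccl9, Mmp7, Spink4, Rnase4, Fxyd3, Defa34, Defa17, Atoh1 and Agr2. Goblet and Paneth markers were both among them, so the cluster took neither name. It was singled out after its values were seen, as the cluster with Atoh1 among its leading genes, so its high Atoh1 level was set by that choice. Differences between classes are described with no test.

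The promoter sequences of Atoh1 and Dll1 are shown, because HES1 acts on Atoh1 directly and Dll1 is the ligand whose level was highest in goblet-like cells. RefSeq promoter windows of 300 bases (250 before to 50 after the start, build GRCm38.p6) were matched for 9 of the 10 genes, all but Hes1, so that no motif was searched for Hes1. Capitals mark CACGCG, the class C site that HES factors can bind, on either strand, and CAGCTG, an E-box of the kind bound by basic helix-loop-helix activators. The Atoh1 window lies at chr6:64728875-64729174 on the plus strand, and the Dll1 window at chr17:15376883-15377182 on the minus strand.
Atoh1: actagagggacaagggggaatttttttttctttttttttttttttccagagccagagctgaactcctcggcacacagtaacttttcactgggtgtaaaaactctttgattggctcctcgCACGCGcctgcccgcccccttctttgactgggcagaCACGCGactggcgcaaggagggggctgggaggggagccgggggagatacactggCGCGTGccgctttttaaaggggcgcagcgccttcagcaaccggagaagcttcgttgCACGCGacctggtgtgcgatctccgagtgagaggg
Dll1: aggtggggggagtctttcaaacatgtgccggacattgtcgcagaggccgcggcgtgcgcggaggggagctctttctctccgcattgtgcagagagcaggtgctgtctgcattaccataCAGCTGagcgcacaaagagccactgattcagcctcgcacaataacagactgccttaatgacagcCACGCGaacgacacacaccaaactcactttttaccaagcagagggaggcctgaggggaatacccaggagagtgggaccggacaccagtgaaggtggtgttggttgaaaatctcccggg
The Atoh1 window held 4 matches to CACGCG, starting at bases 120, 156, 210 and 266 of the window. At least 1 match occurred in 9.27% of all 32851 promoter windows, and at least 4 matches in 25 of them (0.0761%). The Dll1 window printed held 1 match to CACGCG at base 183 and 1 to CAGCTG at base 119, a motif found in 16.3% of windows. A further Dll1 window, at chr17:15375774-15376073 on the minus strand, held no match to these or to the motifs named next. Among the other genes, Jag1 had 2 matches to CACGCG, and Notch2, Dll4 and Jag2 had 1 each. TGGGAA, the core of the RBPJ site, was matched in the Spdef window alone among the 9 genes, and in 25.6% of all windows. CACNAG, the N-box that HES factors also bind, was matched 3 times in the Notch1 window and once each in those of Notch2, Dll1 (the printed window), Dll4 and Atoh1, and 42.5% of all windows held at least 1. All motifs were searched on both strands, and no matches overlapped in the sequences printed.

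Notch1, the main receptor of crypt stem cells, was highest in stem-like cells when UMIs were summed per class. Its level there was 51.3, 55.4 and 59.6 CPM in Fpr2f/f and 50.3, 61.5 and 58.1 CPM in Fpr2VKO libraries. TA-like cells followed at 36.5 ± 7.35 CPM (SD, n = 6 libraries), below stem-like cells in 6 of 6 libraries and without overlap of the ranges. Deep cells weigh more in such sums. Counting each cell the same, the log2 fold of Notch1 over all other cells was 0.74 and 0.76 in stem-like clusters 5 and 7. TA-like clusters ran from -0.32 in the deep cluster 11 (median of 32189 UMIs) to 1.03 in cluster 1, so the step did not hold for each cluster. Goblet-like cells held 5.04 ± 2.23 CPM and Paneth-like cells 4.32 ± 1.34 CPM, and stem-like cells were 11.1-fold and 13.0-fold above them. The levels of these secretory classes overlapped. In Paneth-like cells 8 Paneth markers alone summed to 461096 to 501431 CPM in Fpr2f/f and 475629 to 494245 CPM in Fpr2VKO libraries. So large a part lowers the CPM of all other genes in the class. Paneth-like levels, folds and shares at equal depth, here and below, were not corrected for it. The tuft-like class had 32.6 ± 19.8 CPM from 36 UMIs and overlapped TA-like cells. Notch2, the second receptor of the epithelium, had 31.7 ± 6.32 CPM in stem-like cells and 23.4 ± 3.63 CPM in TA-like cells, while the enterocyte-like class had 7.34 ± 1.3, the goblet-like class 2.59 ± 1.22 and the Paneth-like class 2.27 ± 0.539 CPM. Stem-like cells were 12.3-fold above goblet-like cells for Notch2 and above TA-like cells in 6 of 6 libraries, with ranges that overlapped for TA-like cells. By cluster, the log2 fold of Notch2 over all other cells was 0.79 and 0.35 in stem-like clusters 5 and 7 and 0.24 to 0.64 in TA-like clusters.

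Barcodes under 100 UMIs, which are mostly empty droplets, show the free RNA. Notch1 stood there at 17.5 to 21.4 CPM and Notch2 at 10.1 to 13.0 CPM over the libraries. Stem-like and TA-like cells lay above this level for both receptors in each library, and enterocyte-, goblet- and Paneth-like cells below it. The Paneth-like value came mostly from the deep cluster 13 (median of 50894 UMIs per cell), which held 89.3% to 98.8% of the UMIs of the class and had Notch1 at 2.90 CPM. The shallow cluster 16 of the class (median of 3227 UMIs) had 27.4 CPM of Notch1, from 56 UMIs.

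**Figure D1:**
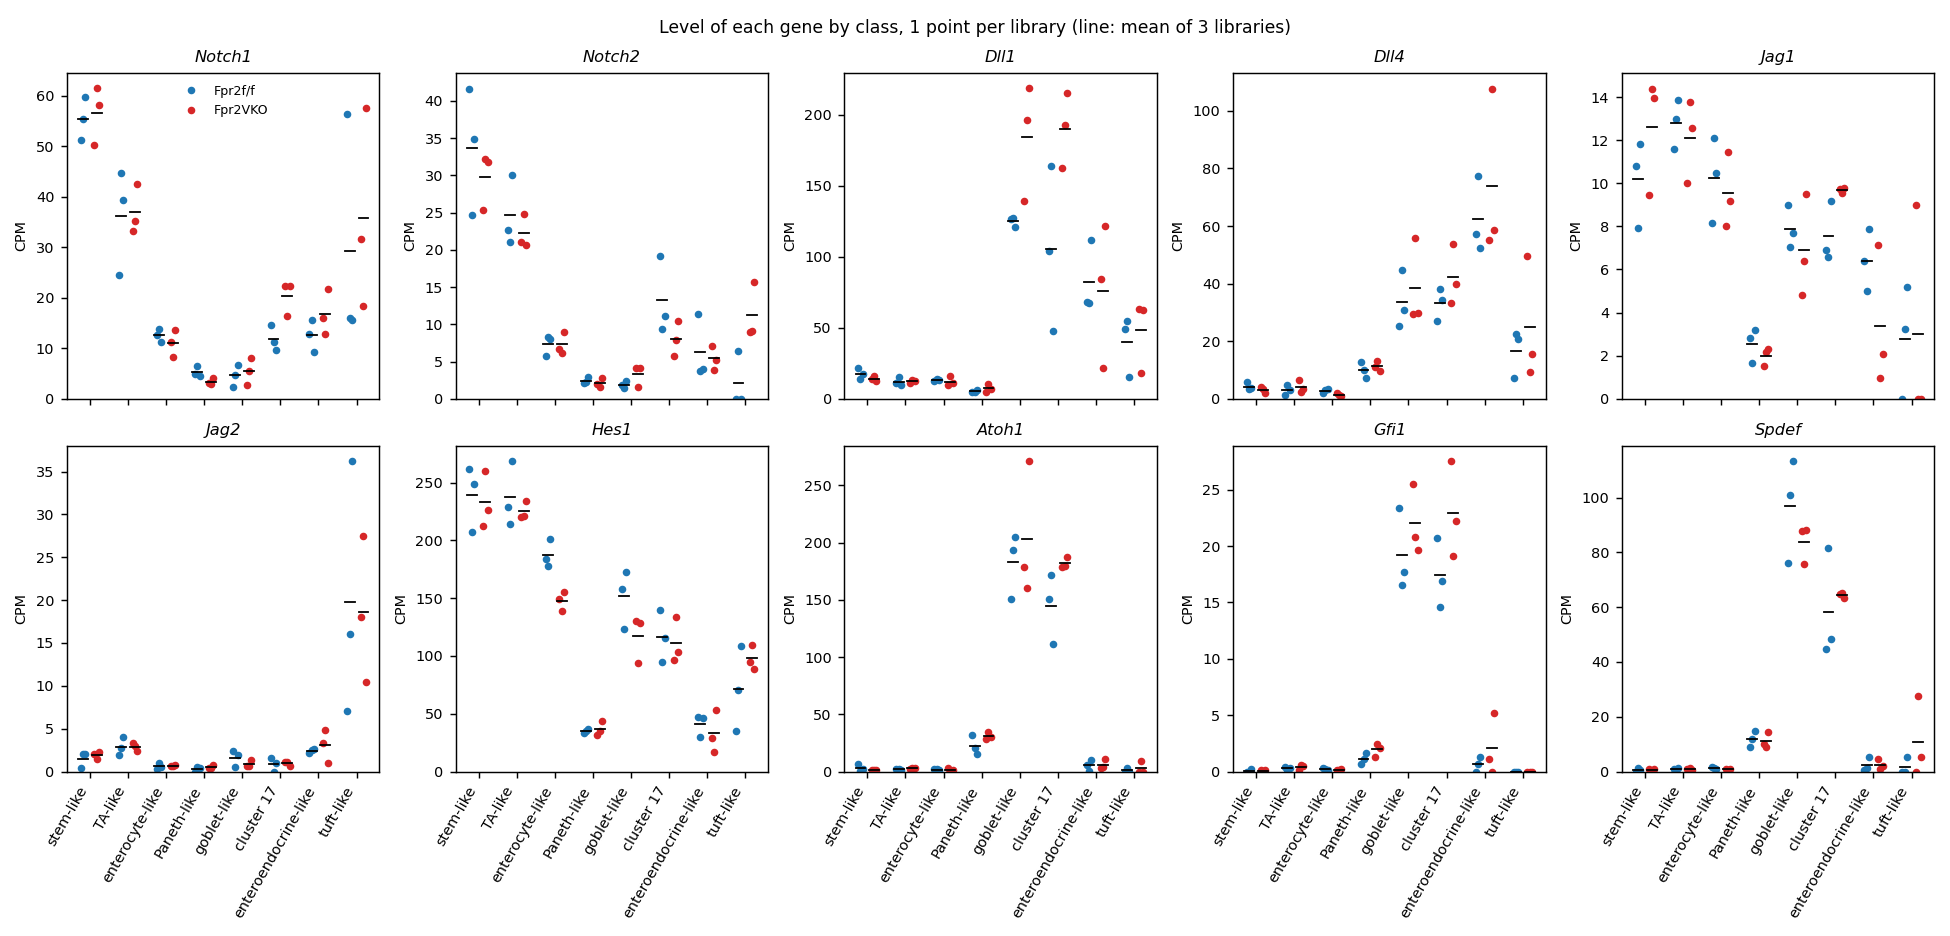
Level of each of the 10 genes (CPM, axes from 0) in the named epithelial classes and in cluster 17, with a point for each library, blue for Fpr2f/f and red for Fpr2VKO, and a line at the mean of 3 libraries. The class with the highest mean is stem-like for Notch1, Notch2 and Hes1, goblet-like for Dll1, Atoh1, Gfi1 and Spdef, enteroendocrine-like for Dll4, TA-like for Jag1 and tuft-like for Jag2.

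The Delta-like ligands lay in secretory classes, but peaked in different ones. Dll1, which secretory progenitors of the crypt make, was highest in goblet-like cells, at 126, 127 and 121 CPM in Fpr2f/f and 139, 196 and 219 CPM in Fpr2VKO libraries. Enteroendocrine-like cells held 79.0 ± 35.9 CPM, less in 6 of 6 libraries although the ranges overlapped, and tuft-like cells 44.0 ± 21.6 CPM. Paneth-like cells held 6.26 ± 2.08 CPM, and goblet-like cells were 24.7-fold above them. The levels in stem-like (15.9 CPM), enterocyte-like (12.7 CPM) and TA-like cells (12.1 CPM) overlapped and, as means, lay under the 16.6 to 18.3 CPM of barcodes under 100 UMIs.

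At an equal depth of 5000 UMIs per cell, 44.4% ± 8.87 (SD, n = 6) of goblet-like cells had a Dll1 UMI, against 5.47% ± 1.10 of enterocyte-like cells, the absorptive class. Without thinning the shares were 45.1% and 9.06%. Thinning left out 5661 of 9775 Fpr2f/f and 2824 of 6622 Fpr2VKO epithelial cells as shallower than 5000 UMIs.

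Dll4, the other Delta-like ligand of the small intestine, was highest in enteroendocrine-like cells, at 57.4, 77.5 and 52.5 CPM in Fpr2f/f and 55.0, 108 and 58.7 CPM in Fpr2VKO libraries. Goblet-like cells followed at 36.0 ± 11.9 CPM, lower in 6 of 6 libraries although the ranges overlapped. Paneth-like cells had 10.6 ± 2.20 CPM, above stem-like cells (3.69 ± 1.2 CPM) without overlap, and enterocyte-like cells had 2.14 ± 0.982 CPM. Barcodes under 100 UMIs held 4.26 to 6.84 CPM of Dll4. At 5000 UMIs, 24.3% ± 9.59 of enteroendocrine-like and 0.920% ± 0.840 of enterocyte-like cells had a Dll4 UMI (47.4% and 1.95% without thinning).

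The enteroendocrine-like class consisted of a pair of clusters that differed in Dll1 and shared Dll4. Cluster 19 (301 cells) was led by Gcg, Ghrl, Cck and Gip, which encode peptide hormones, and Neurog3, the factor of enteroendocrine progenitors, was among its leading genes. Cluster 21 (266 cells) was led by Chgb, Tac1, Chga and Tph1, the last of which encodes the enzyme of serotonin synthesis in enterochromaffin cells. Dll1 in cluster 19 was 118, 145 and 163 CPM in Fpr2f/f and 129.8, 25.7 and 248 CPM in Fpr2VKO libraries. In cluster 21 it was 25.0, 21 and 4.02 CPM in Fpr2f/f and 26.2, 16.8 and 18.7 CPM in Fpr2VKO libraries. Dll1 was higher in cluster 19 in 6 of 6 libraries, 7.43-fold over the means, with Fpr2VKO replicate 2 far below the other libraries in cluster 19. Dll4 was above the 4.26 to 6.84 CPM of barcodes under 100 UMIs in both, with 53.3 ± 18.3 CPM in cluster 19 and 82.8 ± 24.1 CPM in cluster 21, higher in cluster 21 in 6 of 6 libraries but with overlapping ranges. Fpr2VKO replicate 2 had the highest Dll4 in both clusters, 89.9 and 128 CPM. A library held 20 to 70 cells of either cluster. With the UMI minimum from the rank curve, cluster 19 came apart, and 182 of its cells fell in a cluster led by Ghrl and Neurog3 and 113 in one led by Gcg, Cck, Gip and Pyy. The log2 fold of Dll1 over all other cells was 2.15 in the former and 0.09 in the latter, and that of Dll4 1.58 and 1.37, so the Dll1 of cluster 19 lay mainly in its Ghrl and Neurog3 part.

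**Figure D2:**
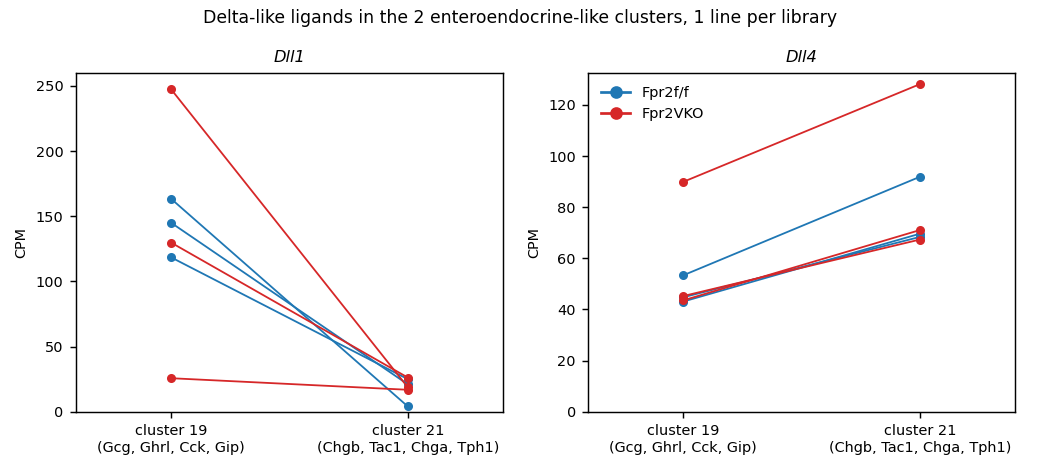
Dll1 and Dll4 (CPM) in the pair of enteroendocrine-like clusters, with a line for each library, blue for Fpr2f/f and red for Fpr2VKO. Dll1 is lower and Dll4 higher in cluster 21 than in cluster 19 in each library.

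Jag1 was spread over several classes, whereas Jag2 was highest in a single class. Jag1 was 12.5 ± 1.46 CPM in TA-like, 11.4 ± 2.53 in stem-like, 9.89 ± 1.72 in enterocyte-like and 7.40 ± 1.72 CPM in goblet-like cells, where neighbours in this order overlapped, and 6.99 to 8.53 CPM in barcodes under 100 UMIs. Paneth-like cells had 2.28 ± 0.645 CPM of Jag1. Jag2 in tuft-like cells, the chemosensory cells of the epithelium, was at 7.05, 16.1 and 36.2 CPM in Fpr2f/f and 18.0, 27.4 and 10.5 CPM in Fpr2VKO libraries. These values rest on 22 UMIs in all and exceeded those of TA-like cells (2.90 ± 0.715 CPM), the next class, in 6 of 6 libraries without overlap.

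Hes1, the target gene, was graded between classes in the sums, where deep cells weigh more. Stem-like cells (236 ± 24.1 CPM) and TA-like cells (231 ± 19.8 CPM) overlapped, and TA-like cells were above enterocyte-like cells (168 ± 23.6 CPM) in 6 of 6 libraries. Goblet-like cells held 134 ± 27.9 CPM, tuft-like cells 84.7 ± 28.1, enteroendocrine-like cells 37.0 ± 14.1 and Paneth-like cells 36.0 ± 4.17 CPM. Barcodes under 100 UMIs held 109 to 152 CPM, above the means of tuft-, enteroendocrine- and Paneth-like cells. At 5000 UMIs, 59.0% ± 3.92 of stem-like and 17% ± 5.71 of Paneth-like cells had a Hes1 UMI, and without thinning 67.7% and 52.5% had one. Within the Paneth-like class, Hes1 was 28.2 CPM in the deep cluster 13 and 163 CPM in the shallow cluster 16. Counting each cell the same, the log2 fold of Hes1 over all other cells was 0.07 and 0.12 in stem-like clusters 5 and 7. It was 0.78 and 0.34 in the shallow enterocyte-like clusters 4 and 2, but -0.98 and -1.06 in the deep clusters 14 and 15. TA-like clusters ran from -0.51 (deep cluster 11) to 1.01 (cluster 8), so the order of classes did not hold for each cluster.

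The secretory factors were concentrated in goblet-like cells. Atoh1 there was 151, 193 and 205 CPM in Fpr2f/f and 179, 160.0 and 271 CPM in Fpr2VKO libraries. Goblet-like cells were 7.25-fold above Paneth-like cells (26.6 ± 7.21 CPM) and 133-fold above enterocyte-like cells (1.45 ± 0.984 CPM), with no overlap with either. Enteroendocrine-like cells, which arise from Atoh1-positive progenitors, had 5.80 ± 4.29 CPM, a mean under the 6.67 to 11.8 CPM of barcodes under 100 UMIs. At 5000 UMIs, 47.9% ± 6.22 of goblet-like, 11.1% ± 2.59 of Paneth-like and 0.810% ± 0.847 of enterocyte-like cells had an Atoh1 UMI (44.3%, 31% and 1.2% without thinning). Stem-like cells (2.1 ± 2.41 CPM) and TA-like cells (2.36 ± 0.740 CPM) had Atoh1 means under the range of barcodes under 100 UMIs. At 5000 UMIs, 0.755% ± 0.649 and 1.35% ± 1.1 of them had an Atoh1 UMI, near the share of enterocyte-like cells. Whether these UMIs came from free RNA or from rare cells with Atoh1 RNA was not tested.

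Spdef was 90.3 ± 14.5 CPM in goblet-like and 11.5 ± 2.58 CPM in Paneth-like cells, and its means in the remaining named classes of epithelium ran from 0.591 CPM in stem-like to 6.31 CPM in tuft-like cells. Gfi1 was 20.6 ± 3.38 CPM in goblet-like and 1.55 ± 0.649 CPM in Paneth-like cells. Barcodes under 100 UMIs held 5.15 to 9.83 CPM of Spdef and 0.338 to 1.53 CPM of Gfi1, so the Paneth-like means lay just above these levels and the tuft-like Spdef mean within them. Stem-like cells held 3 Gfi1 UMIs in all, TA-like cells 13, enterocyte-like cells 7, enteroendocrine-like cells 9 and tuft-like cells 0. The 12.4 ± 8.61 CPM of Gfi1 in immune-like cells rest on 25 UMIs.

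Cluster 17, picked by its Atoh1, also held Dll1, Spdef and Gfi1, while its receptor levels were within or just below those of near-empty barcodes. Its Dll1 level was 104, 164 and 47.8 CPM in Fpr2f/f and 162, 193 and 215 CPM in Fpr2VKO libraries. Atoh1 averaged 163 ± 28.4 CPM, Spdef 61.3 ± 13.3, Gfi1 20.2 ± 4.50 and Dll4 37.7 ± 9.12 CPM, and the Dll1 and Atoh1 ranges overlapped those of goblet-like cells. Notch1 at 16.1 ± 5.36 CPM and Notch2 at 10.6 ± 4.63 CPM were 3.19-fold and 4.11-fold above goblet-like cells, in 6 of 6 libraries and without overlap, and Hes1 at 114 ± 19.2 CPM was below stem-like cells in each library. Barcodes under 100 UMIs had 17.5 to 21.4 CPM of Notch1 and 10.1 to 13.0 CPM of Notch2. The part of free RNA in the receptor levels of the cluster was not tested. Markers of other classes were present in the cluster, with a summed level over the libraries of 52641 to 150868 CPM in Fpr2f/f and 55938 to 69592 CPM in Fpr2VKO for 8 Paneth markers, and 880.5 to 1437 and 1459 to 2392 CPM for 9 stem markers. None of these markers was at 0, and their part in the levels above was not tested.

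The genes whose levels most resembled those of Hes1, Atoh1 and Dll1 were ranked by Pearson's r of log2 levels over 48 sums (8 classes, the unnamed cells counted as a class, in 6 libraries) among 6320 genes. The sums share libraries and depth, so the values are descriptions. Closest to Hes1 were Sh2d4a (r = 0.93), Ccnd1, which encodes cyclin D1 (0.91), Suclg2 (0.90), Tgm2 (0.89) and Mapkapk3 (0.89). Closest to Atoh1 were Agr2, a disulfide isomerase of mucus-producing cells (0.95), Fkbp11 (0.93), Qsox1 (0.92), Ccl9 (0.92) and Cracr2a (0.92). Agr2 and Ccl9 were among the markers that named the goblet-like class, where Atoh1 was highest, so their r was partly set by the naming. Closest to Dll1 were Smim6 (0.89), Samhd1 (0.86), Grk2 (0.86), Tpd52 (0.85) and Sh3bgrl3 (0.85). Among the 10 genes themselves, Atoh1 had r = 0.91 with Gfi1, 0.90 with Spdef, 0.44 with Dll1 and -0.68 with Notch1. Hes1 had r = 0.70 with Jag1, 0.66 with Notch2, 0.46 with Notch1 and -0.61 with Dll4.

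Whether Atoh1-positive cells also differed in the other 9 genes was asked within single cells, at 5000 UMIs per cell. For each library the share of positive and of negative cells holding a UMI was taken, and the shares were compared with a two-sided exact sign-flip permutation test over 6 libraries, whose smallest possible p is 0.03125, with Benjamini-Hochberg adjustment over 9 genes. An adjusted p under 0.05 then needs at least 6 genes at that smallest p, so a gene could pass only together with others. In stem-like and TA-like cells, 30 cells were Atoh1-positive and 3255 negative, with 2 to 9 positive cells per library. This positive share was near that of enterocyte-like cells, as given above, and the part of free RNA in it was not tested. No gene passed there. The smallest adjusted p by this exact test was 0.141, for Jag2 and Spdef, each found in 0 of 30 positive cells, which allows a share of up to 10% (3 counts, a limit that covers counting error only). Among negative cells Jag2 was in 1.28% and Spdef in 0.448%, so with so few positive cells a count of 0 could not tell the shares apart. Hes1 was in 54.2% ± 15.6 of positive and 58.7% ± 3.73 of negative cells, and Dll1 in 15.8% ± 20.1 and 6.23% ± 1.36. The positive Dll1 share rests on 3 of 30 cells and was 50% in Fpr2f/f replicate 1, which had 2 positive cells.

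Across epithelial cells outside the Paneth-, goblet-, enteroendocrine- and tuft-like classes, 195 cells were Atoh1-positive and 5924 negative, with 22 to 40 positive cells per library. Dll1 was found in 39.7% ± 10.3 of positive and 6.74% ± 1.28 of negative cells. The difference, given without cluster 17 below, was 33.0 percentage points and above 0 in 6 of 6 libraries (exact adjusted p = 0.0469). Spdef rose from 1.62% ± 0.363 of negative to 27.7% ± 8.01 of positive cells and Dll4 from 2.15% ± 0.486 to 18.3% ± 8.21, each in 6 of 6 libraries with the same exact adjusted p. Notch1 fell from 13.2% ± 2.98 of negative to 2.29% ± 3.11 of positive cells, Notch2 from 8.55% ± 0.766 to 2.35% ± 2.62 and Hes1 from 53.5% ± 2.82 to 36.8% ± 8.13, again in 6 of 6 libraries with that exact adjusted p. Gfi1 was in 0.379% ± 0.216 of negative and 11% ± 6.73 of positive cells, higher in 5 of 6 libraries (exact adjusted p = 0.0804). Jag1 and Jag2 did not pass (exact adjusted p = 0.176 and 0.875).

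Cluster 17 held 133 of the 195 positive cells, a part that its choice by Atoh1 favoured. Without cluster 17, in an analysis added after the data were seen, 62 positive and 5684 negative cells remained and 0 of the 9 genes passed or had an unadjusted exact p under 0.05. The 62 cells held the 30 positive stem-like and TA-like cells, and how many of their Atoh1 UMIs came from free RNA was not tested. The comparison therefore cannot tell whether cells that make Atoh1 differ. Dll1 was then in 4 of the 62 positive and 345 of the 5684 negative cells, a mean over libraries of 9.33% ± 10.8 and 5.92% ± 1.09 (exact adjusted p = 0.891). Hes1 was in 52.6% ± 15.8 and 53.9% ± 2.85 (exact adjusted p = 1.0), Spdef was higher in 1 of 6 libraries, and Gfi1 was in 0 of the 62 positive cells, which allows a share of up to 4.84% of cells with a UMI at this depth, for counting error only. Notch2 was in 3.75% ± 5.86 of positive and 8.71% ± 0.679 of negative cells, Notch1 in 7.36% ± 8.17 and 13.4% ± 3.11, and Dll4 in 7.52% ± 6.69 and 1.6% ± 0.474, with the direction of the wider population in 4 of 6 libraries each (exact adjusted p = 0.562 for the 3 genes). Within cluster 17, a comparison added after the data were seen, Dll1 was in 56.1% ± 16.3 of 133 positive and 26.7% ± 14.1 of 240 negative cells, higher in 6 of 6 libraries. Notch1 was in 0 of the 133 positive cells, which allows up to 2.26% of cells with a UMI at this depth, for counting error only, and in 9.42% ± 4.72 of negative cells. Both had an exact permutation p of 0.03125, the smallest possible, and an adjusted p of 0.141, which could not fall under 0.05 with fewer than 6 genes at the smallest p. Within goblet-like cells, also added later, Gfi1 was in 11.1% ± 4.55 of 311 positive and 5.01% ± 2.01 of 351 negative cells (exact adjusted p = 0.281), and Dll1 in 44.4% ± 11.4 and 39.2% ± 8.13 (exact adjusted p = 0.469).

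**Figure D3:**
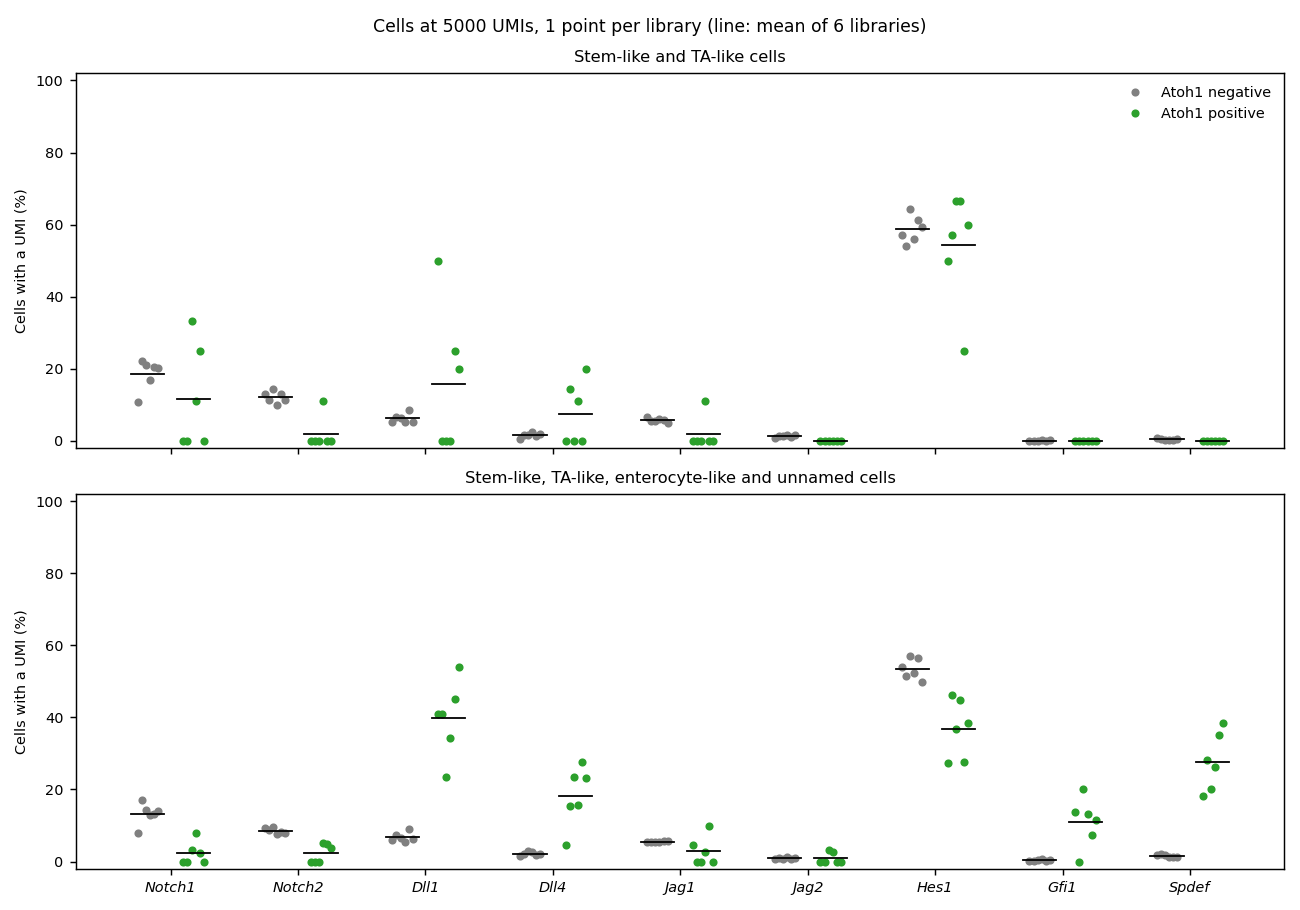
Share of cells with a UMI of each of the other 9 genes (percent, cells thinned to 5000 UMIs) in Atoh1-negative (grey) and Atoh1-positive cells (green), with a point for each library and a line at the mean. The upper panel holds stem-like and TA-like cells. In the lower panel, outside the named secretory classes, Dll1, Dll4 and Spdef are higher and Notch1, Notch2 and Hes1 lower in positive cells in 6 of 6 libraries. Of the positive cells, 133 of 195 were in cluster 17, which was picked by its Atoh1. None of the 9 genes passed in the 62 positive cells left without that cluster, and the part of free RNA in their Atoh1 UMIs was not tested.

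The design asked whether loss of epithelial Fpr2 moved these genes. UMIs were summed per library, and Fpr2VKO was compared with Fpr2f/f by the edgeR quasi-likelihood test over all genes, with an adjusted p (Benjamini-Hochberg) under 0.05 as the call. Over all epithelial cells 0 of the 10 genes were called by edgeR and 0 by DESeq2, where 0.0421% of 16627 genes were called by edgeR. An unadjusted edgeR p under 0.05 was found for 1 of the 10 and for 8.91% of all genes, so the members' share was near the background. In such sums, fewer cells of a type and less RNA per cell cannot be told apart. The summed level of 9 stem markers was 2150.4 to 2329 CPM in Fpr2VKO and 957 to 1278 CPM in Fpr2f/f libraries, and none of the markers was at 0. The median of UMIs per cell, with immune-like cells counted in, was 6259 to 6531 in Fpr2VKO and 2979 to 4517 in Fpr2f/f libraries. The part of either in the differences below was not tested. Where groups are said below not to overlap, the share of all genes without overlap was not counted.

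Dll1 was the gene with an unadjusted p under 0.05. Its level was 28.0, 30.7 and 23.9 CPM in Fpr2f/f and 31.8, 35.4 and 35.8 CPM in Fpr2VKO libraries, so the groups did not overlap (log2 fold change 0.36, SE 0.13, 95% interval 0.07 to 0.65, edgeR adjusted p = 0.483). Hes1 was 187, 149 and 186 CPM in Fpr2f/f and 152, 162 and 153 CPM in Fpr2VKO libraries, and the groups overlapped (log2 fold change -0.11, SE 0.12, 95% interval -0.36 to 0.14, edgeR adjusted p = 0.807). The log2 fold changes of the other genes were 0.18 for Notch1, -0.04 for Notch2, 0.15 for Dll4, 0.01 for Jag1, -0.07 for Jag2, 0.20 for Atoh1, 0.29 for Gfi1 and -0.11 for Spdef, each with a 95% interval that held 0.

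Within 8 classes, the unnamed cells counted as a class, 53 of 80 pairs of a gene and a class passed the filter on low counts. edgeR called 0 of the 53 and DESeq2 called 0. An unadjusted edgeR p under 0.05 was found for 6 of the 53 and for 7.64% of all pairs of a gene and a class tested, so the values below are descriptions of estimates that were not called. Of all genes tested, edgeR called 0.776% in Paneth-like, 0.223% in enterocyte-like, 0.168% in stem-like, 0.141% in goblet-like, 0.0336% in tuft-like, 0.0205% in enteroendocrine-like, 0.00843% in unnamed and 0.00817% in TA-like cells. Of the 10 genes, 8, 7, 7, 8, 2, 4, 9 and 8 passed the filter in the same order. Those that did not pass had few counts, such as Gfi1 with 3 and Atoh1 with 57 UMIs in stem-like cells.

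In stem-like cells the receptor and the target were measured with narrow intervals. Notch1 was 55.4 ± 4.19 CPM in Fpr2f/f and 56.6 ± 5.73 CPM in Fpr2VKO libraries (SD, n = 3 each), with a log2 fold change of -0.03 (95% interval -0.29 to 0.24). Hes1 was 239 ± 28.4 and 233 ± 24.7 CPM, with a log2 fold change of -0.08 (95% interval -0.33 to 0.17). The deep cluster 5 held 61.5% to 72.8% of stem-like cells in Fpr2VKO and 29.9% to 38.6% in Fpr2f/f libraries, and the shallow cluster 7 held the others. The summed levels of 9 stem markers (3964 to 6519 CPM in Fpr2f/f, 7092 to 8011 CPM in Fpr2VKO), 8 TA markers (1156 to 1335 and 1348 to 1642 CPM) and 10 enterocyte markers (489 to 633 and 751 to 800.3 CPM) did not overlap between groups in stem-like cells. No marker was at 0, and their part in the stem-like values here and in that of Klf4 below was not tested. Within cluster 5, Notch1 was 52.8, 52.0 and 54.1 CPM in Fpr2f/f and 51.1, 61.8 and 58.6 CPM in Fpr2VKO libraries, with overlapping groups.

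Goblet-like cells had opposite estimates for the ligand and the target, and neither was called. Dll1, with the library values given above, averaged 125 ± 3.27 CPM in Fpr2f/f and 185 ± 41.0 CPM in Fpr2VKO libraries, without overlap (log2 fold change 0.51, SE 0.13, 95% interval 0.23 to 0.78, edgeR adjusted p = 0.177). It was called in 3 of 12 alternative analyses, with no filter on low counts (edgeR adjusted p = 0.0414), with a replicate block (0.0417) and without Fpr2VKO replicate 1 (0.0162), and the adjusted p reached 0.603 in the others. Hes1 was 158, 123 and 173 CPM in Fpr2f/f and 130.1, 93.8 and 128 CPM in Fpr2VKO libraries, and the groups overlapped (log2 fold change -0.41, SE 0.13, 95% interval -0.67 to -0.14, edgeR adjusted p = 0.359). Atoh1 (0.08, 95% interval -0.32 to 0.48), Gfi1 (0.20, -0.22 to 0.63) and Spdef (-0.27, -0.55 to 0.01) had log2 fold changes whose intervals held 0. The summed level of 8 TA markers in goblet-like cells was 194 to 224 CPM in Fpr2VKO and 123 to 163 CPM in Fpr2f/f libraries. That of 10 enterocyte markers was 1823 to 2114 and 1629 to 1797 CPM, and that of the 8 goblet markers 121981 to 134921 and 135041 to 160309 CPM, in the same order. None of these 3 sums overlapped between groups, no marker was at 0, and their part was not tested.

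Enterocyte-like cells had 7 genes past the filter and none called. The estimated log2 fold change was above 0 for 0 of the 7, but for 3 of 7 without Fpr2f/f replicate 2, for 3 of 7 without Fpr2VKO replicate 1 and for 7 of 8 with up to 40% mitochondrial UMIs. The class of that last setting was another population, as described below. The median over all 11638 genes tested in the class was -0.0117, and the share of them above 0 was not counted. Hes1 was 184, 178 and 201 CPM in Fpr2f/f and 149.7, 139 and 155 CPM in Fpr2VKO libraries, without overlap (log2 fold change -0.33, SE 0.11, 95% interval -0.56 to -0.10, edgeR adjusted p = 0.193). Clusters 14 and 15, with Hes1 means of 117 and 112 CPM against 299.9 and 344 CPM in clusters 2 and 4, held 57.0% to 72.3% of the class's UMIs in Fpr2f/f and 76.5% to 89.4% in Fpr2VKO libraries. Within each of these 4 clusters the groups overlapped in Hes1, which with 3 libraries per group does not show that a difference is absent. The part of the make-up in the Hes1 values was not tested. With cells of up to 40% mitochondrial UMIs kept, the log2 fold change of Hes1 was 0.06. The enterocyte-like class of that setting was another population, since a cluster with Areg and Apob and one led by Fabp6 were left unnamed. Their log2 folds of Hes1 over all other cells were 0.56 and 0.26, against -1.04 to -0.44 in the clusters named enterocyte-like. Dll4 was 2.11, 3.0 and 3.45 CPM in Fpr2f/f and 2.09, 1.39 and 0.797 CPM in Fpr2VKO libraries, from 86 UMIs in all and below the 4.26 to 6.84 CPM of barcodes under 100 UMIs (log2 fold change -0.99, SE 0.43, 95% interval -1.90 to -0.08, edgeR adjusted p = 0.302).

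In Paneth-like cells Atoh1 and Notch1 had unadjusted p-values under 0.05, in opposite directions, and neither was called. Atoh1 was 31.6, 20.2 and 15.5 CPM in Fpr2f/f and 28.1, 34.2 and 30.1 CPM in Fpr2VKO libraries, and the groups overlapped through Fpr2f/f replicate 1 (log2 fold change 0.58, SE 0.18, 95% interval 0.22 to 0.95, edgeR adjusted p = 0.127). It was called in 2 of 12 alternative analyses, without Fpr2f/f replicate 1 (log2 fold change 0.72, edgeR adjusted p = 0.0422) and with no filter (0.66, edgeR adjusted p = 0.0315), and with up to 40% mitochondrial UMIs the log2 fold change was -0.12. Notch1 was 4.91, 6.49 and 4.57 CPM in Fpr2f/f and 3.07, 2.83 and 4.07 CPM in Fpr2VKO libraries, without overlap (log2 fold change -0.79, SE 0.30, 95% interval -1.38 to -0.20, edgeR adjusted p = 0.25), and its log2 fold change was 0.16 with up to 40% mitochondrial UMIs. The Paneth-like class of that setting was another population, since 13363 of its cells formed a cluster with a median of 1456 UMIs that the 3 Fpr2VKO libraries supplied with 4205, 655 and 5020 cells. Cluster 13 held 31.7% to 57.3% of Paneth-like cells in Fpr2f/f and 61.9% to 86.6% in Fpr2VKO libraries, and cluster 16, where the mean Notch1 level was higher, held the others. Of the UMIs of the class, cluster 13 held 89.3% to 94.8% in Fpr2f/f and 91.1% to 98.8% in Fpr2VKO libraries, and the groups overlapped. The part of this make-up in the Notch1 and Atoh1 values was not tested. The summed level of 10 enterocyte markers in Paneth-like cells was 219 to 227 CPM in Fpr2f/f and 158 to 196 CPM in Fpr2VKO libraries, without overlap and with no marker at 0, and its part was not tested.

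**Figure D4:**
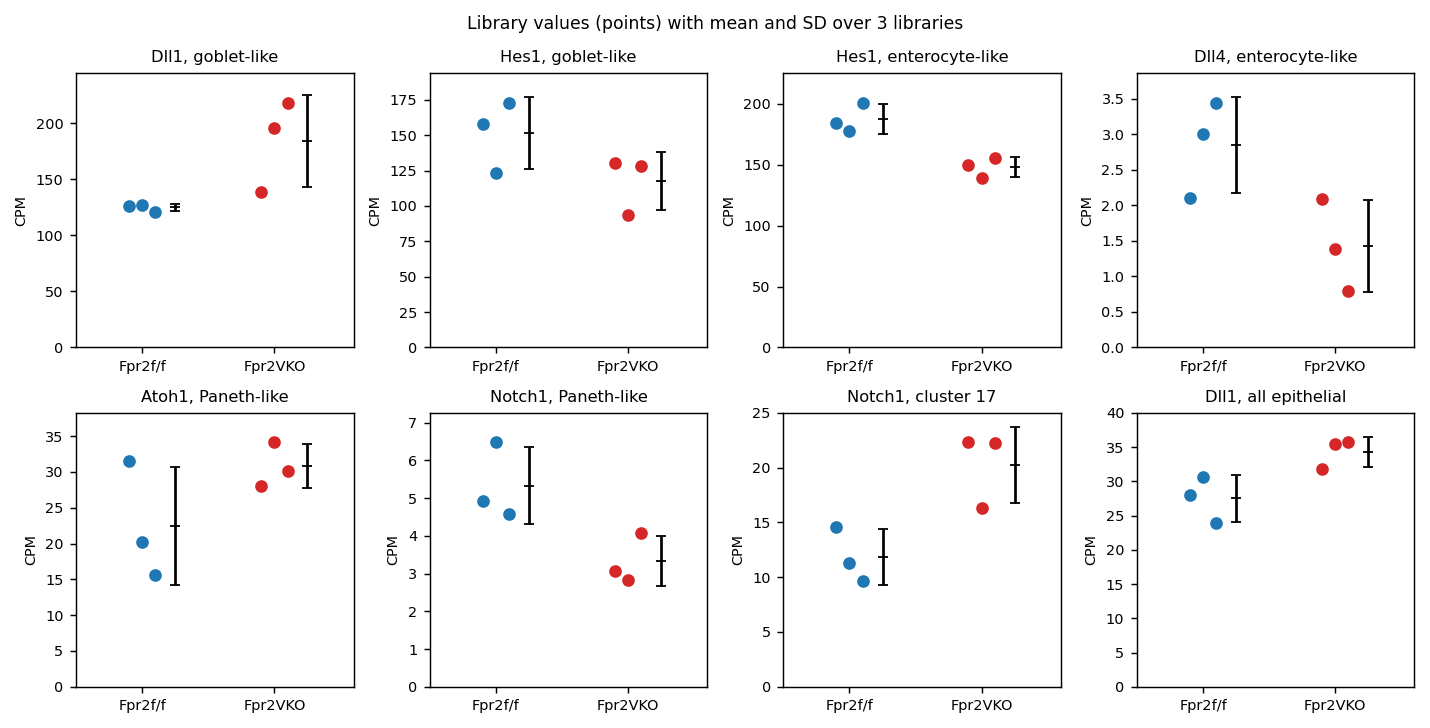
Library values (CPM, axes from 0) of 8 pairs of gene and class, blue for Fpr2f/f and red for Fpr2VKO, with bars at mean and SD of 3 libraries. Fpr2f/f and Fpr2VKO libraries overlap for Hes1 in goblet-like and Atoh1 in Paneth-like cells and do not overlap in the other panels. The share of all genes without overlap was not counted, and edgeR called none of the 8 pairs.

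Cluster 17 was fitted on its own after its values were seen. edgeR called 0 of 9 genes, where 0.0105% of all genes were called, and DESeq2 called 0. An unadjusted p under 0.05 was found for 2 of the 9 and for 5.39% of all genes. Notch1 was 14.6, 11.3 and 9.65 CPM in Fpr2f/f and 22.4, 16.3 and 22.2 CPM in Fpr2VKO libraries, without overlap (log2 fold change 0.68, SE 0.28, 95% interval 0.09 to 1.26, edgeR adjusted p = 0.912), with 4 of 6 libraries under the level of barcodes under 100 UMIs. The 9 stem markers, summed, also differed without overlap in the cluster, at 880.5 to 1437 CPM in Fpr2f/f and 1459 to 2392 CPM in Fpr2VKO libraries, as did 10 enterocyte markers at 427 to 770.0 and 820.1 to 838 CPM and 9 enteroendocrine markers at 162 to 199 and 101.1 to 157 CPM. None of these markers was at 0, and their part in the Notch1 difference was not tested. Notch2 had a log2 fold change of -0.79 (SE 0.36, edgeR adjusted p = 0.916). Atoh1 was 151, 172 and 111 CPM in Fpr2f/f and 179, 179.7 and 188 CPM in Fpr2VKO libraries, without overlap (log2 fold change 0.22, SE 0.16, 95% interval -0.10 to 0.53, edgeR adjusted p = 0.986). Dll1 overlapped between groups by the values given above (log2 fold change 0.74, SE 0.44, 95% interval -0.41 to 1.89, edgeR adjusted p = 0.974).

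**Figure D5:**
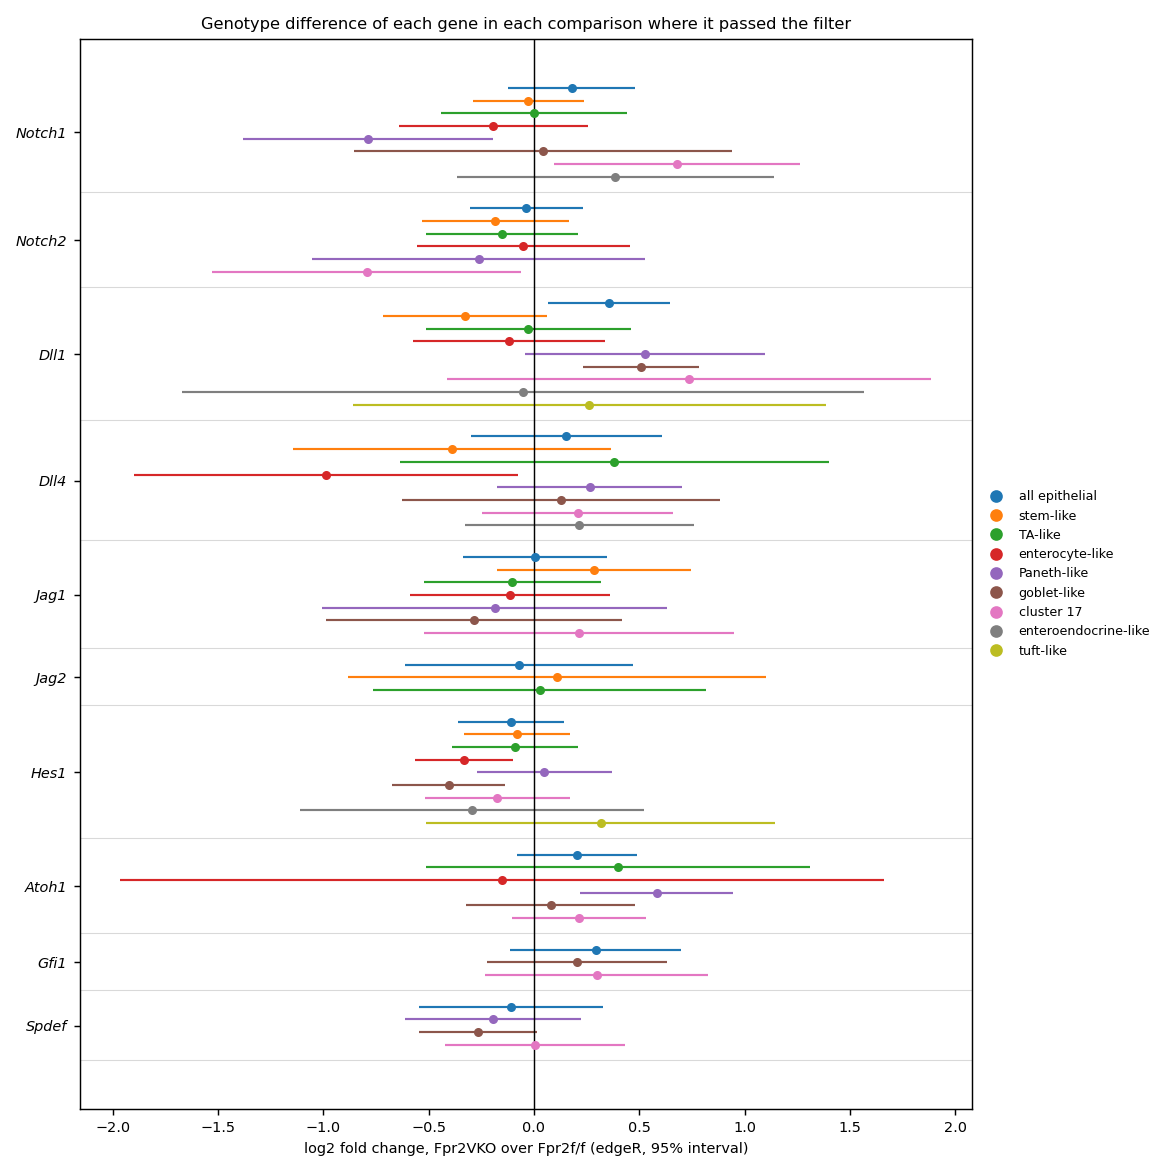
Log2 fold change of Fpr2VKO over Fpr2f/f (edgeR) with 95% intervals for the genes over all epithelial cells, in the named classes and in cluster 17, coloured by comparison. Among the intervals that leave out 0 are those of Dll1 (0.23 to 0.78) and Hes1 (-0.67 to -0.14) in goblet-like cells, and none of the genes was called after adjustment over all genes.

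The rest of the pathway gave 0 calls by edgeR as well. Of 53 further pathway genes, 48 passed the filter over all epithelial cells, 0 were called by edgeR and 0 by DESeq2, and 2 had an unadjusted edgeR p under 0.05. Their median log2 fold change was 0.01. Of 18 further secretory fate genes, 15 passed, 0 were called by edgeR and 0 by DESeq2, and 3 had an unadjusted edgeR p under 0.05, with a median log2 fold change of 0.11. The median over all genes tested was -0.00331, and 8.91% of them had an unadjusted edgeR p under 0.05. Within the classes, 12 to 37 pathway and 5 to 15 secretory fate genes passed the filter and edgeR called 0, while DESeq2 called Klf4, a factor of goblet differentiation, in the stem-like and the enterocyte-like class. Klf4 had a log2 fold change of -0.62 (edgeR adjusted p = 0.0560) in stem-like and -0.72 (edgeR adjusted p = 0.0679) in enterocyte-like cells, and was called in 6 and 5 of 12 alternative analyses. DESeq2 called 0.261% of 24120 genes in the stem-like and 0.607% of 25029 in the enterocyte-like class. Of the remaining receptors and ligands, Notch3 had a log2 fold change of 0.06 (edgeR adjusted p = 0.968) and Dll3 one of 0.52 (edgeR adjusted p = 0.642) over all epithelial cells. Dll3 in Paneth-like cells was 2.11, 2.09 and 1.83 CPM in Fpr2f/f and 2.85, 3.86 and 4.96 CPM in Fpr2VKO libraries, without overlap (log2 fold change 0.93, SE 0.36, 95% interval 0.21 to 1.66, edgeR adjusted p = 0.278). In this class 5 of 32 pathway genes, and 1032 of all 9154 genes tested, had an unadjusted edgeR p under 0.05. The level of Dll3 in barcodes under 100 UMIs was not taken.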

How the data were processed

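Ileal crypt cells of 3 Fpr2f/f and 3 Fpr2VKO libraries were analysed. The deposited matrices hold raw UMI counts per gene and barcode, which the authors made with MobiVision 2.1 on mm10; the annotation version was not given in the sources used here, and no cells had been called. Barcodes with at least 1000 UMIs, 500 genes and at most 20% mitochondrial UMIs were kept. Doublets were scored against artificial doublets, and 0.8% per 1000 cells of a library were removed. Cells were aligned between libraries by mutual nearest neighbours and clustered on 2000 variable genes and 30 principal components with 20 neighbours at resolution 1 (scanpy 1.11.5, leidenalg 0.10.2), without 81 genes of the pathway lists. Clusters were named for the marker list that stood highest over the remaining cells, if its mean log2 fold was 0.5 or more with at least 3 markers and no other list had more markers among the 10 leading genes.

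UMIs were summed per library and class, with at least 20 cells per library, and compared by the quasi-likelihood test of edgeR 4.0.16 (R 4.3.3) with TMM, filterByExpr and Benjamini-Hochberg adjustment over all genes tested. The test over single cells used in the study was not applied, since cells are not replicates. For shares, cells were thinned to 5000 UMIs. The 10 genes, Fpr2, Notch3, Dll3, list genes past an adjusted p of 0.05 and the 5 genes most like Hes1, Atoh1 and Dll1 were to be named. Klf4 and the other list genes and classes with values were named after these were seen. The 10 genes and all lists were chosen with earlier results of these data known. Alternatives were DESeq2 1.42.0, no filter, a replicate block, each library left out, 40% mitochondrial UMIs, a UMI minimum from the rank curve, no alignment, thinning to 3000 UMIs, doublets kept and a wider cell population. The edgeR and permutation steps were tested on simulated data.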

Additional observations from a re-analysis of the deposited data

Results flagged for a closer look

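Notch1 had a log2 fold change of 0.68 in cluster 17 and of -0.79 in Paneth-like cells, a difference of 1.47. The Fpr2VKO libraries were all above the Fpr2f/f libraries in the first and all below them in the second. The difference itself was not tested, and Notch1 was called by edgeR in neither. The Paneth-like value was 0.16 with 40% mitochondrial UMIs, and the mean levels over 6 libraries, 16.1 CPM in cluster 17 and 4.32 CPM in Paneth-like cells, were below the 17.5 to 21.4 CPM of barcodes under 100 UMIs.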

How the results depend on the processing

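The class with the highest mean was the same for 10 of 10 genes with 40% mitochondrial UMIs, the rank-curve minimum and no alignment, while 21, 7 and 14 of 70 class levels moved by more than 1 SD. Of 262 alternative log2 fold changes for 22 pairs of gene and comparison, 237 kept direction and side of the threshold, 5 became called and 20 changed sign; the cause was not tested. The genes called within classes numbered 0, but 2 with no filter, 1 with the replicate block and 0 to 1 with a library left out (Dll1 in goblet-like cells without Fpr2VKO replicate 1, Atoh1 in Paneth-like cells without Fpr2f/f replicate 1). Sign changes with 40% mitochondrial UMIs were Jag1 at -0.023 and Jag2 at 0.0063 over all epithelial cells, Atoh1 at -0.12 and Notch1 at 0.16 in Paneth-like cells and Hes1 at 0.063 in the enterocyte-like class. Notch1 in stem-like cells was 0.013 with no filter, and Jag1 over all epithelial cells -0.0042 with the replicate block. With a library left out, log2 fold changes over all epithelial cells ran from -0.13 to 0.019 for Notch2, -0.057 to 0.37 for Dll4, -0.12 to 0.16 for Jag1, -0.18 to 0.086 for Jag2 and -0.32 to 0.10 for Spdef, and from -0.099 to 0.044 for Notch1 in stem-like cells. Same-numbered libraries correlated at -0.03, -0.03 and 0.28 in their deviations from group means. The pair of replicates 3 had the highest value, while not every library correlated best with its own number. Fpr2f/f 2 with Fpr2VKO 1 had 0.18, and Fpr2f/f 1 with Fpr2VKO 2 had 0.14. The labels give no pairs or batches, and whether libraries were handled in blocks was not tested. The replicate block moved the count of all genes called over all epithelial cells from 7 to 54, in stem-like cells from 20 to 130, in TA-like from 1 to 2, in enterocyte-like from 26 to 199, in goblet-like from 14 to 45, in enteroendocrine-like from 2 to 4 and in unnamed cells from 1 to 8. DESeq2 called 115, 63 and 152 genes over all epithelial, stem-like and enterocyte-like cells, 27 in Paneth-like (71 by edgeR), 22 in goblet-like and 19 in unnamed cells. No filter gave 160, 189, 8, 428, 107, 37, 13, 7 and 221 calls over all epithelial cells and in stem-, TA-, enterocyte-, Paneth-, goblet-, enteroendocrine- and tuft-like and unnamed cells. With 40% mitochondrial UMIs, 512 genes were called in stem-like and 1 in Paneth-like cells, and leaving out Fpr2f/f replicate 1 gave 93 over all epithelial cells (7 with all libraries), and 62 in unnamed cells and 35 in cluster 17 (1 in each with all libraries). Leaving out Fpr2f/f replicate 3 gave 296 in the enterocyte-like class. For Atoh1-positive against negative stem-like and TA-like cells, thinning to 3000 UMIs gave differences of 9.83 percentage points for Notch1, -4.34 for Dll1, -1.26 for Dll4 and 2.46 for Hes1, against -7.03, 9.61, 5.96 and -4.42 at 5000 UMIs, none of which passed. Leaving out a library gave -7.46 to 1.93 for Hes1. In the wider population the differences were -11.0 for Notch1, -6.20 for Notch2, 33.0 for Dll1, 16.1 for Dll4, 0.105 for Jag2, -16.7 for Hes1, 10.6 for Gfi1 and 26.1 for Spdef. Comparisons added after the data were seen gave 0.236 for Notch2, -2.25 for Dll4, 6.11 for Gfi1 and 1.35 for Spdef within goblet-like cells, and 10.3 for Gfi1 and 16.4 for Spdef within cluster 17, and 1.53 for Spdef in the wider population without cluster 17. Leaving out the cluster led by immunoglobulin genes, also added then, gave 0.36 for Dll1 over all epithelial cells.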

Other observations

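Other genes of the pathway also differed between classes, described here over 6 libraries with no test. Nrarp, a Notch target that feeds back on the pathway, was 37.6 ± 5.98 CPM (SD, n = 6) in stem-like and 37.9 ± 4.71 CPM in TA-like cells, against 2.23 ± 1.21 CPM in Paneth-like cells. Enteroendocrine-like cells held Dner, a non-canonical ligand, at 64.5 ± 11.2 CPM, and tuft-like cells, the next named class, at 5.59 ± 3.40 CPM. Maml3, a coactivator of the Notch complex, was 554 ± 49.6 CPM in enteroendocrine-like and 106 ± 15.1 CPM in goblet-like cells. Of the Fringe enzymes, which add sugars to Notch receptors, Lfng was 33.2 ± 16.2 CPM in tuft-like cells and Mfng 19.4 ± 9.01 CPM in enteroendocrine-like cells.

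Among the further secretory fate genes, Creb3l1 (213 ± 10.8 CPM), Foxa3 (98.8 ± 11.4 CPM) and Klf4 (532 ± 75.2 CPM) were highest in goblet-like cells. Bhlha15, which drives secretory cell maturation, was 19.9 ± 3.24 CPM in Paneth-like and 16.8 ± 2.84 CPM in goblet-like cells. Pou2f3, the factor of tuft cells, was 224 ± 41.5 CPM in tuft-like cells.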
